A study of Mus musculus with 10 samples.

Results

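The genes described here encode the mitochondrial enzymes of the tricarboxylic acid (TCA) cycle and of fatty acid oxidation, in mouse regulatory T (Treg) cells. They were taken by symbol from a list of 31 named genes, and all 31 were among the 14738 genes of the deposited table. The list holds 16 genes of the TCA cycle with the pyruvate dehydrogenase complex, and 15 genes of fatty acid oxidation with 1 lipase.

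RNA was sequenced from Treg cells sorted out of mouse spleen. The hosts were mixed bone-marrow chimeras, in which CD45.1+ marrow was mixed 1:1 with CD45.2+ marrow of the genotype of interest, and the sort kept cells positive for CD45.2, CD4 and Foxp3-YFP and negative for CD45.1. That marrow was Foxp3Cre Flcnfl/fl in the group labelled Flcn KO and Foxp3Cre in the group labelled WT, with 5 libraries each, which the design text calls biological replicates. Both groups therefore carried the Cre, which is driven by Foxp3, the gene that marks Treg cells, and they differed by label in the loxP-flanked Flcn alleles. The cells developed beside CD45.1+ cells in the same host. Flcn encodes folliculin, a lysosome-associated protein of nutrient sensing, and the question addressed here is how the RNA of these mitochondrial enzymes differed between genotypes. No source used here gives age, sex or batch.

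The TCA cycle oxidises acetyl-CoA in the mitochondrial matrix and yields NADH and FADH2 for the respiratory chain. Its acetyl-CoA comes from pyruvate, through the pyruvate dehydrogenase complex, or from fatty acids, which enter the matrix through the carnitine shuttle and are shortened by beta-oxidation. Treg cells have been described as relying on mitochondrial respiration, fatty acid oxidation included, more than conventional effector T cells do.

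Values are normalized counts, that is reads per gene divided by the size factor of the library. The reads of the table summed to between 1914516 and 4153854 per library, and 1 read was worth 0.628 to 1.27 normalized counts. The targeted gene, Flcn, had more reads under the label Flcn KO, at 158, 129, 130.4, 149 and 124 normalized counts, against 78.0, 45.6, 54.7, 46.5 and 46.2 normalized counts under the label WT. The groups did not overlap, the estimated log2 fold change was 1.36 with an adjusted p of 0.00476 in limma, and the exact two-sided permutation p was 0.00794, the smallest that 5 against 5 libraries allow. A value per gene does not show the deleted exons, so these values check nothing about the labels, and group names below are those of the labels. WT replicate 1 stood apart: 44.1% of its reads were mitochondrial ribosomal RNA, against 24.7% to 31.8% in the other 9 libraries, and 807 genes had no read in it, against 117 to 389. Treg markers were present throughout. Foxp3 averaged 1207 ± 99.97 normalized counts in the Flcn KO and 1283 ± 64.1 in the WT libraries (SD, n = 5 each). Of the 6 Treg markers, 1 had an estimate above 0. In limma, Il2ra was higher and Ikzf2 lower in Flcn KO. Markers of other cells were also detected. The 7 B cell markers summed to between 1281 and 2580 in Flcn KO libraries and between 1130 and 1372 in WT libraries, and the 8 myeloid markers summed to between 143 and 330.4 in Flcn KO and between 89.2 and 285 in WT libraries. None of these 15 markers passed the limma test. Estimates were higher in Flcn KO for 6 of the 7 B cell markers and 6 of the 8 myeloid markers. The median log2 fold changes were 0.41 and 0.30. Adgre1 alone had no read in some library, and the part of such cells in the values below was not tested. In bulk RNA, fewer cells that express a gene cannot be told apart from less RNA per cell.

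Promoters are shown for 4 members as the stretch from 250 bases before to 50 bases after the transcription start, 5′ to 3′ on the gene's strand, from RefSeq on GRCm38.p6. Idh2 is shown because it had the highest fold change of all members, with its CCAAT box in capitals (chr7:80115301-80115600, minus strand). Ogdh (chr11:6291920-6292219, plus strand) and Acadm (chr3:153944594-153944893, minus strand) are shown because they hold motifs of 2 kinds of regulator. CACGTG is the E-box core bound by the MiT/TFE factors that folliculin is known to restrain. AAGGTCA is bound by oestrogen-related receptors, with which PGC-1 coactivators work. In Ogdh the capitals mark CACGTG and TGACCTT, and in Acadm TGACCTT, which is AAGGTCA read on the other strand. The Ogdh window also holds 2 CCAAT boxes on the other strand, left in lower case. Hadhb (chr5:30155003-30155302, plus strand) is shown because its promoter is shared with Hadha and holds none of the 3 motifs, so it has no capitals.
Idh2: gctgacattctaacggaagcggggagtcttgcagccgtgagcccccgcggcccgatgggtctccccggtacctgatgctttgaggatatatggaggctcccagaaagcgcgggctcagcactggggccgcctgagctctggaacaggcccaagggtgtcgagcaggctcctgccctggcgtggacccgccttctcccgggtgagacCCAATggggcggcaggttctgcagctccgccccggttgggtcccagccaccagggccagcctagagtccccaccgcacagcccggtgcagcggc
Ogdh: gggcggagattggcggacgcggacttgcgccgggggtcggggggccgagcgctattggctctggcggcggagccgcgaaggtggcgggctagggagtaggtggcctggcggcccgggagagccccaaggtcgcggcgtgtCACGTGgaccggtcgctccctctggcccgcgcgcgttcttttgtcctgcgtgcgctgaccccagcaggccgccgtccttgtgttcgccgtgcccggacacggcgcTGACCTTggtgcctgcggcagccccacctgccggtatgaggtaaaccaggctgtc
Acadm: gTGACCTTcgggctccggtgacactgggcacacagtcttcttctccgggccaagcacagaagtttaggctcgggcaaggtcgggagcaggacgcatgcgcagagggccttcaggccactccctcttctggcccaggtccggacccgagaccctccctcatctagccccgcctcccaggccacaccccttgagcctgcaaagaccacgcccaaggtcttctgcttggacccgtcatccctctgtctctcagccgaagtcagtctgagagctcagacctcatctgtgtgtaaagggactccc
Hadhb: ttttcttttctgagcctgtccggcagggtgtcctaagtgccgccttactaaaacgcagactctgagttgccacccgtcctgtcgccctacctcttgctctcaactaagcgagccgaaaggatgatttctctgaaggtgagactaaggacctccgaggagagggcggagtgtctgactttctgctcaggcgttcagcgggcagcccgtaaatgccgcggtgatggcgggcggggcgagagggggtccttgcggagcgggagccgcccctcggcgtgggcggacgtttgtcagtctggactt

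Each motif was searched on both strands in the promoters of the 29 members that the RefSeq table lists, which leaves out Idh3a and Acaa2. CACGTG was present in 1 of 29, that of Ogdh, where 3 of its 6 listed start sites had it, against 8.09% of 27025 genes. AAGGTCA was present in 2 of 29, those of Ogdh, at 1 of its 6 start sites, and Acadm, against 5.38% of genes. CCAAT was present in 13 of 29 (44.8%), against 41.1% of genes. The windows of Hadha and Hadhb lie on opposite strands and overlap over 228 of 300 bases, with the start sites 273 bases apart. A match of letters is a description and does not show binding, and a window without a match says nothing about the factor.

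No member passed the test between genotypes. In limma on log2(normalized count + 1), adjusted over 14723 genes, 0 of 16 TCA genes and 0 of 15 fatty acid oxidation genes had an adjusted p under 0.05, against 1.71% of all genes tested. With no adjustment, 2 of 31 members were under 0.05, Idh2 and Suclg2, which is 6.45% of members against 14.0% of all genes. The same count of 0 came from edgeR, which called 5.64% of the 10493 genes it tested, from DESeq2, which called 4.93%, and from the authors' deposited table, which called 4.77%. With no adjustment, edgeR had 3 of 30 members under 0.05, against 17.7% of all genes, and DESeq2 had 3 of 31, against 14.8%. The authors' deposited table had 2 of 31, against 14.5%. The third gene in edgeR and DESeq2 was Pdhb.

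The limma intervals bound what a difference could have been on the log2(normalized count + 1) scale, without adjustment for the number of genes. For members with few reads the SE depended on the method. It was 0.18 in limma and 0.37 in the authors' deposited table for Eci1, and 0.27 and 0.44 for Etfb. For Idh2 the order was the other way, 0.38 and 0.34. The 95% interval of the fold change lay within 2-fold in either direction for 28 of 31 members, the exceptions being Idh2, Suclg2 and Acadvl. It lay within 1.5-fold for 18 of 31, 10 TCA genes and 8 fatty acid oxidation genes. Standard errors on the log2 scale ran between 0.11 and 0.49, with a median of 0.17 over the members and 0.24 over all genes. The TCA genes had a median log2 fold change of 0.13 and 11 of 16 estimates above 0. The fatty acid oxidation genes had a median of -0.003 and 7 of 15 above 0. Over all genes tested, the median was 0.003 and 50.6% of estimates were above 0.

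**Figure D1:**
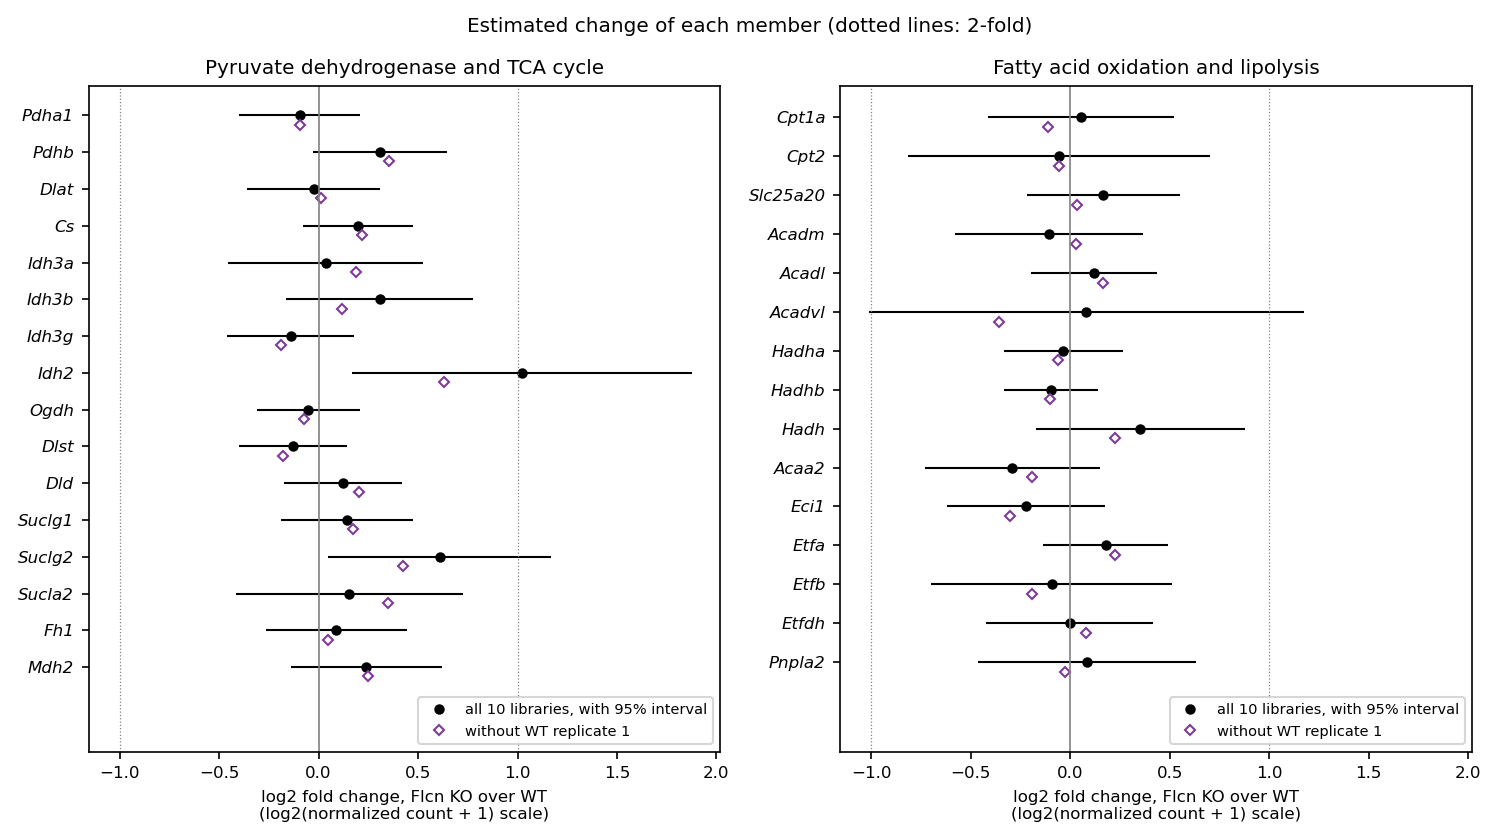
The estimated log2 fold change of each member, Flcn KO over WT on the log2(normalized count + 1) scale, is drawn as a black dot with its 95% interval, and the estimate without WT replicate 1 as an open diamond. Dotted lines mark 2-fold in either direction. The intervals of Idh2 and Suclg2 lie above 0, and that of Acadvl is the only one to cross both 2-fold lines.

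The pyruvate dehydrogenase complex turns pyruvate into acetyl-CoA. Pdha1, the alpha subunit of its E1 enzyme, averaged 98.4 ± 13 normalized counts in Flcn KO and 105 ± 11.4 in WT libraries (SD, n = 5 each), a log2 fold change of -0.09. Pdhb, the beta subunit of the same enzyme, averaged 133 ± 12.4 in Flcn KO and 108 ± 18.0 in WT libraries, a log2 fold change of 0.31 with an adjusted p of 0.411 in limma. The 2 subunits work in equal numbers, and the ratio of Pdha1 to Pdhb counts was 0.575 to 0.889 in Flcn KO and 0.780 to 1.36 in WT libraries, so the groups overlapped. Dlat, the E2 enzyme of the complex, had a log2 fold change of -0.02.

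Citrate synthase, Cs, which starts the cycle, averaged 282 ± 29.6 normalized counts in Flcn KO and 245 ± 23.5 in WT libraries. Its log2 fold change was 0.20, with a 95% interval from -0.08 to 0.48. The isocitrate step is served by 2 kinds of enzyme in the matrix. Idh3a, Idh3b and Idh3g encode the alpha, beta and gamma subunits of the NAD-dependent enzyme of the cycle, whereas Idh2 encodes a separate NADP-dependent enzyme that yields NADPH.

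Idh2 had 22.3, 19.98, 35.4, 30.7 and 30.8 normalized counts in the 5 Flcn KO libraries, against 3.72, 18.5, 17.8, 15.9 and 16.8 in the 5 WT libraries. Every library labelled Flcn KO was above every library labelled WT, though the lowest Flcn KO value, 19.98, stood close to the highest WT value, 18.5. Idh2 was the only member whose groups did not overlap in this direction, and none did so in the other, against 2.47% and 2.45% of all genes, 4.92% in either direction. The value of 3.72 in WT replicate 1 came from only 3 reads, so its counting error is large. The means were 27.8 ± 6.44 in Flcn KO and 14.5 ± 6.14 in WT libraries (SD, n = 5 each). The log2 fold change was 1.02 (SE 0.38, 95% interval 0.17 to 1.87), with an adjusted p of 0.262 in limma and 0.118 in edgeR. WT replicate 1 carried part of that estimate: without it, WT libraries averaged 17.2 ± 1.16 (SD, n = 4), the log2 fold change was 0.63, and the adjusted p in limma was 0.150. The authors' deposited table gave 0.92 with an adjusted p of 0.116.

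The subunits of the NAD-dependent enzyme did not pass the test. Idh3g had 100.3, 145, 137, 116 and 131 normalized counts in Flcn KO libraries, against 120.1, 138, 144, 127 and 163 in WT libraries. The groups overlapped over most of their range, and Idh3g had the lowest log2 fold change of the TCA genes, -0.14 (SE 0.14). Idh3b averaged 175 ± 13 in Flcn KO and 147 ± 40.8 in WT libraries, and its log2 fold change of 0.31 was 0.12 without WT replicate 1, where Idh3b stood at 83.0 normalized counts. Idh3a had a log2 fold change of 0.04. The ratio of Idh2 counts to the summed counts of the 3 Idh3 genes was 0.0517 to 0.0944 in Flcn KO and 0.0123 to 0.0541 in WT libraries.

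The 2-oxoglutarate dehydrogenase complex follows. Ogdh, its E1 enzyme, averaged 261 ± 14.0 normalized counts in Flcn KO and 271 ± 28.6 in WT libraries, a log2 fold change of -0.05 with a 95% interval from -0.31 to 0.21. Dlst, its E2 enzyme, had a log2 fold change of -0.13. Dld, the E3 enzyme that this complex shares with pyruvate dehydrogenase, had 0.12.

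Succinyl-CoA synthetase makes succinate and a nucleotide triphosphate, with a common alpha subunit, Suclg1, and 2 alternative beta subunits, Suclg2 for GTP and Sucla2 for ATP. Suclg2 had 85.7, 101, 113, 88.2 and 94.8 normalized counts in Flcn KO libraries, against 37.2, 98.2, 47.1, 82.7 and 67.2 in WT libraries. The Flcn KO libraries lay close together, and the WT libraries spread over a wide range in which replicate 2 reached into the Flcn KO values, so the groups overlapped. The means were 96.5 ± 10.9 in Flcn KO and 66.5 ± 25 in WT libraries (SD, n = 5 each). The log2 fold change was 0.61 (SE 0.25, 95% interval 0.05 to 1.17), with an adjusted p of 0.314 in limma, and it was 0.43 without WT replicate 1. The authors' deposited table gave 0.51 with an adjusted p of 0.215. Sucla2 averaged 67.3 ± 16.2 in Flcn KO and 61.8 ± 23.3 in WT libraries, a log2 fold change of 0.15, and Suclg1 had 0.14. The ratio of Sucla2 to Suclg2 counts was 0.392 to 0.966 in Flcn KO and 0.565 to 2.73 in WT libraries, with the highest value in WT replicate 1.

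The last enzymes of the cycle are fumarase, Fh1, with a log2 fold change of 0.09, and malate dehydrogenase, Mdh2, which regenerates oxaloacetate. Mdh2 had 219, 208, 132, 148 and 207 normalized counts in Flcn KO libraries, against 156, 155, 157, 129 and 162 in WT libraries. Replicates 1, 2 and 5 of Flcn KO stood above all WT libraries, and replicates 3 and 4 lay within the WT values. The means were 183 ± 39.9 in Flcn KO and 152 ± 12.9 in WT libraries (SD, n = 5 each), a log2 fold change of 0.24 (SE 0.17) with an adjusted p of 0.598 in limma.

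**Figure D2:**
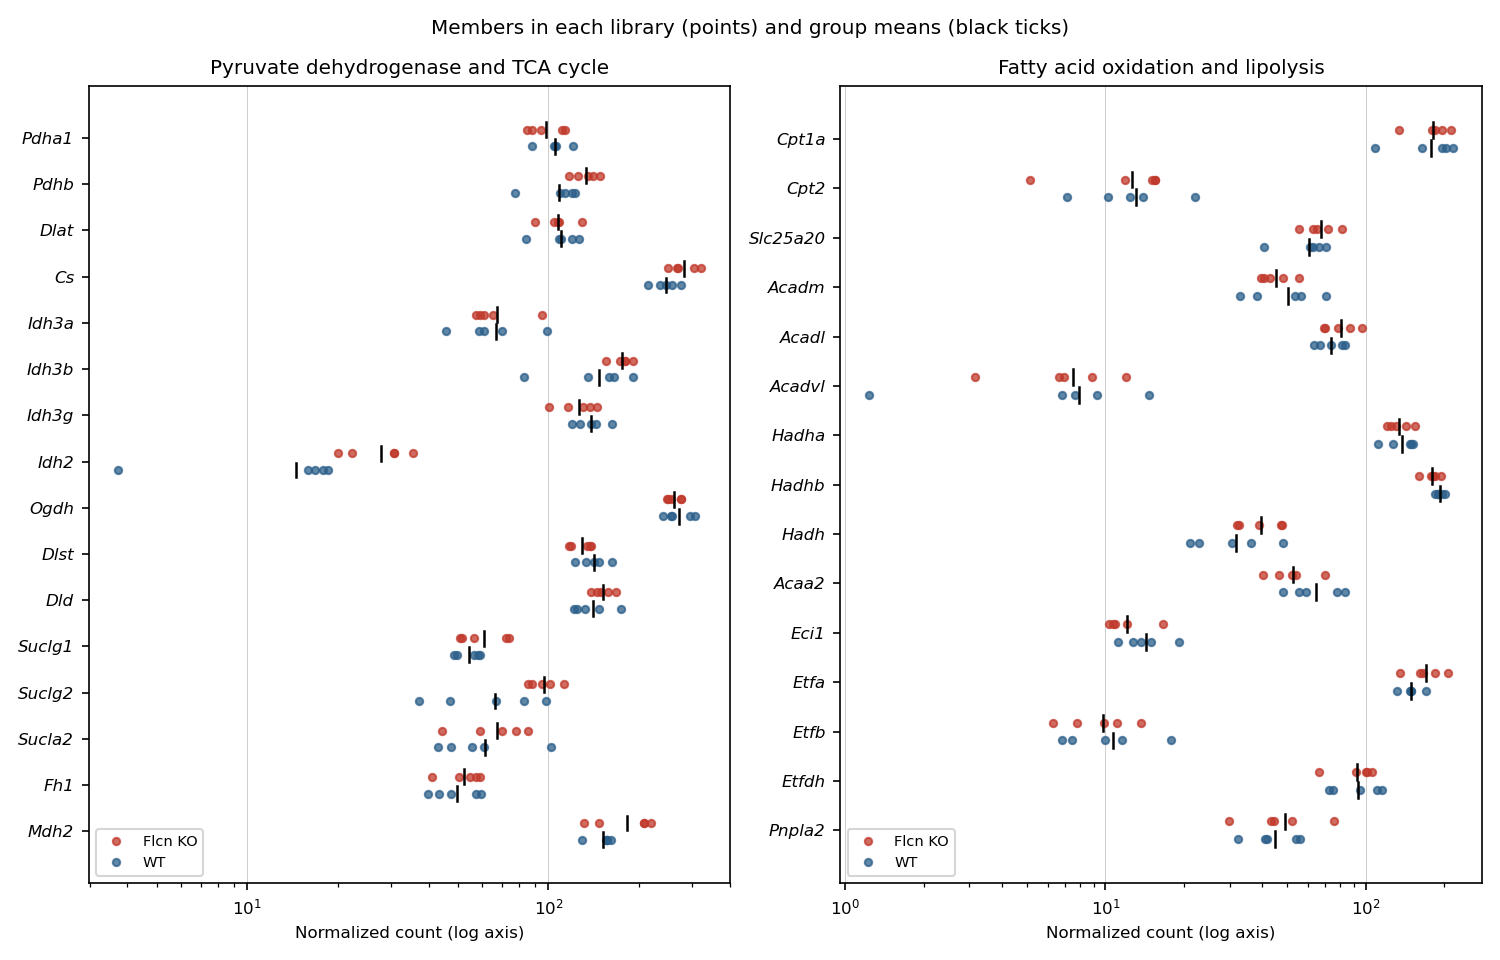
Normalized counts of the 31 members on a log axis, 1 point per library, with Flcn KO libraries above WT libraries for each gene and a black tick at the group mean. Idh2 is the only gene whose Flcn KO points all lie to the right of its WT points, and its leftmost point is the 3.72 of WT replicate 1.

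The carnitine shuttle brings long-chain fatty acids into the matrix. Cpt1a, the outer-membrane acyltransferase and a known control point of the pathway, averaged 182 ± 29.3 normalized counts in Flcn KO and 178 ± 43.3 in WT libraries. Its log2 fold change was 0.05 with a 95% interval from -0.41 to 0.52, and it was -0.11 without WT replicate 1, where Cpt1a stood at 109. Slc25a20, the carrier of acylcarnitine across the inner membrane, had 0.17. Cpt2, which returns the acyl group to CoA inside, averaged 12.6 ± 4.45 in Flcn KO and 13.1 ± 5.6 in WT libraries, from 6 to 24 reads each, with a log2 fold change of -0.06.

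Acyl-CoA dehydrogenases open each turn of beta-oxidation and differ in the chain length they take. Acadm, for medium chains, had a log2 fold change of -0.10, and Acadl, for long chains, had 0.12. Acadvl, for very long chains, averaged 7.52 ± 3.25 normalized counts in Flcn KO and 7.93 ± 4.84 in WT libraries. It had 1 to 14 reads per library, and its 95% interval, from -1.01 to 1.17 on the log2 scale, does not exclude a 2-fold difference in either direction.

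Hadha and Hadhb encode the alpha and beta subunits of the trifunctional protein, which carries out the remaining steps for long chains, and their start sites face away from each other across the promoter printed above. Hadha averaged 134 ± 13.8 normalized counts in Flcn KO and 138 ± 17.6 in WT libraries, a log2 fold change of -0.03. Hadhb averaged 180.4 ± 12.8 in Flcn KO and 193 ± 6.98 in WT libraries. Its log2 fold change of -0.10 had the smallest standard error of all members, 0.11. The ratio of Hadha to Hadhb counts was 0.661 to 0.863 in Flcn KO and 0.591 to 0.822 in WT libraries, so the balance between these subunits overlapped between genotypes.

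Hadh, the short-chain hydroxyacyl-CoA dehydrogenase, had 47.2, 38.9, 32.0, 32.7 and 47.7 normalized counts in Flcn KO libraries, against 21.1, 36.3, 22.9, 30.6 and 48.3 in WT libraries. The highest value was in a WT library and the lowest 2 were too, so the groups overlapped. The log2 fold change of 0.35 (SE 0.24) was the highest of the fatty acid oxidation genes, with an adjusted p of 0.567 in limma. Acaa2, the thiolase that releases acetyl-CoA, had 54.0, 69.9, 51.9, 46.6 and 40.2 normalized counts in Flcn KO libraries, against 83.0, 59.1, 77.7, 55.5 and 48.3 in WT libraries. Flcn KO replicate 2 and WT replicates 1 and 3 were high, and the groups overlapped. Its log2 fold change of -0.29 (SE 0.20) was the lowest of the 15, with an adjusted p of 0.576 in limma. Eci1, an isomerase needed for unsaturated fatty acids, averaged 12.1 ± 2.62 in Flcn KO and 14.3 ± 3.08 in WT libraries, a log2 fold change of -0.22.

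Electrons from the acyl-CoA dehydrogenases pass to the electron transfer flavoprotein, made of Etfa and Etfb, and from it to ubiquinone through Etfdh. Etfa had 207, 135, 185, 166 and 161 normalized counts in Flcn KO libraries, against 171, 149.5, 132, 148 and 149 in WT libraries. Replicates 1 and 3 of Flcn KO stood above all WT libraries and replicate 2 lay among the lowest, so the groups overlapped. The log2 fold change was 0.18 (SE 0.14), with an adjusted p of 0.641 in limma. Etfb averaged 9.75 ± 2.89 in Flcn KO and 10.7 ± 4.41 in WT libraries, from 6 to 16 reads each, a log2 fold change of -0.09. Etfdh had -0.003. Pnpla2, the lipase that starts the breakdown of stored triglyceride, had 0.08 and ranged from 29.7 to 75.5 in Flcn KO libraries and from 32.2 to 56.0 in WT libraries.

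**Figure D3:**
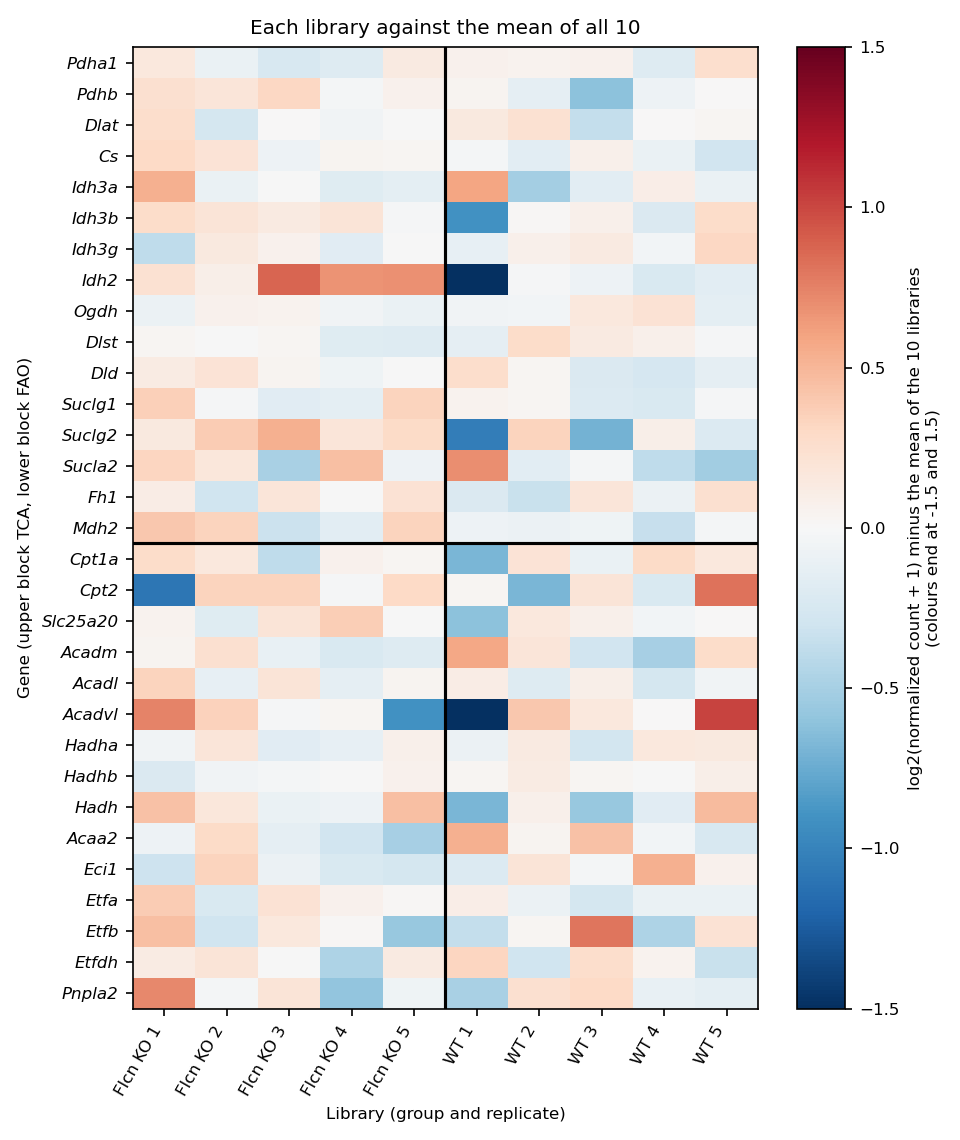
Each cell shows log2(normalized count + 1) of a member in a library minus the mean of that member over the 10 libraries, with Flcn KO libraries left of the line and WT libraries right of it. The column of WT replicate 1 holds the 2 deepest colours, Idh2 and Acadvl, both past the lower end of the scale.

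WT replicate 1 differed from its group in opposite directions for different members. It was the lowest of all 10 libraries for 7 of 31 members and the highest for 6. Other libraries had tallies near these: Flcn KO replicate 1 was the highest for 7 and the lowest for 4, and WT replicate 5 the highest for 7 and the lowest for 3. Against the mean of the other WT libraries, its log2 difference had a median of 0.23 over the 10 members with the lowest GC content of the transcript (40.6% to 47.2%), -0.22 over the 11 in the middle and -0.45 over the 10 with the highest (52.1% to 57.1%). Over the 31 members, the Spearman correlation of this difference with GC content was -0.53, and over 11085 genes of the table with a transcript it was -0.25. These correlations are across genes that share the same libraries and are given without a test. Without this library, limma again called 0 of 31 members, with Idh2 and Pdhb under an unadjusted 0.05, against 14.3% of all genes. The median log2 fold change was then 0.18 over the TCA genes and -0.05 over the fatty acid oxidation genes. Without it, edgeR called 0 of 30 members, against 6.35% of genes.

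Levels were compared between members per kilobase of transcript, as the mean over all 10 libraries. Etfa, with 115 ± 16.5 normalized counts per kb (SD, n = 10), and Mdh2, with 115 ± 22.2, were highest. Idh3b followed with 99.6 ± 20.02, Idh3g with 99.3 ± 13.1, Hadhb with 91.1 ± 5.7 and Cs with 90.1 ± 10.8. Neighbours in this order differed by less than the larger SD of the pair. The lowest were Acadvl with 3.56, Cpt2 with 5.43, Etfb with 11.5, Eci1 with 11.6 and Idh2 with 12.1. Partners in 1 enzyme differed widely in normalized counts per kb: Etfa stood at 115 and Etfb at 11.5, and Hadhb at 91.1 and Hadha at 33.9. The lower partner had the higher GC content in both pairs: 57.1% in Etfb against 45.0% in Etfa, and 51.3% in Hadha against 45.4% in Hadhb. Whether partners differ in amount or in recovery in the libraries was not tested. The transcript lengths come from GENCODE vM21, the longest-coding basic transcript of each gene, and the isoform in these cells was not measured.

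Level went with base composition among the fatty acid oxidation genes. Over these 15 genes, the Spearman correlation of level per kb with GC content was -0.76. Over the 16 TCA genes it was 0.43, and over 11085 genes of the table -0.15. With both lists together, over 31 members, the correlation was -0.28. The 10 members with the highest GC content had a median of 15 normalized counts per kb. The median was 38.0 for the 11 in the middle and 37.5 for the 10 with the lowest. Mdh2 and Idh3b are GC-rich members at high level. All points share the same libraries, and whether the level or its recovery in the libraries differs with GC content was not tested.

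**Figure D4:**
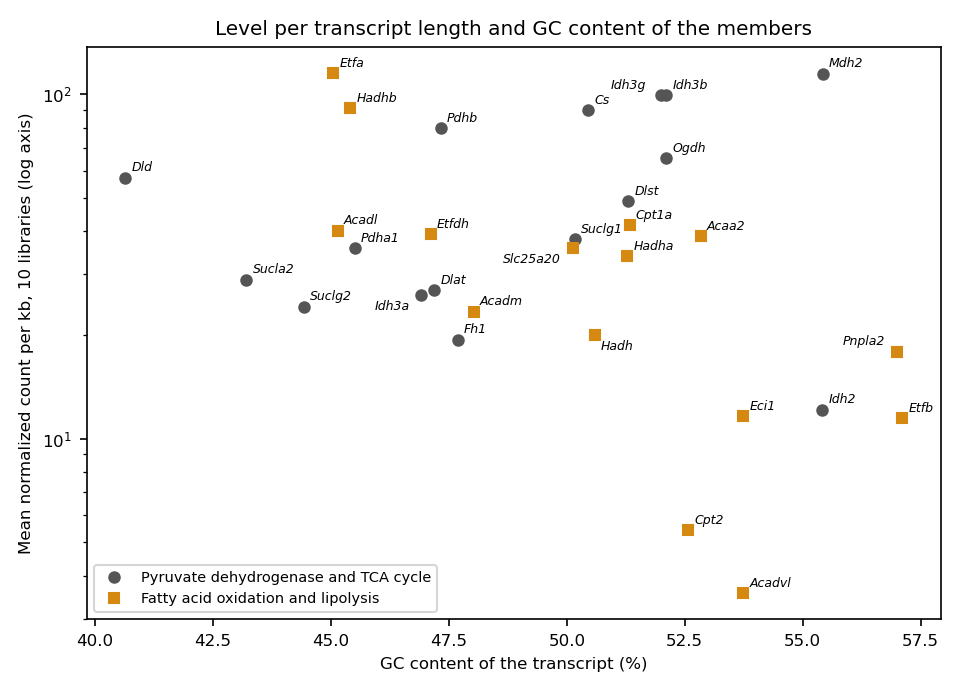
The mean level of each member over the 10 libraries, in normalized counts per kb of transcript on a log axis, is plotted against the GC content of the transcript in percent, with separate marks for the 16 TCA and the 15 fatty acid oxidation genes. Fatty acid oxidation genes above 52% GC lie low, except Acaa2 at 38.7, while Mdh2 lies high at 115.

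Summed over the 16 TCA genes, the libraries held 2019 ± 108 normalized counts in Flcn KO and 1872 ± 30.7 in WT (SD, n = 5 each). Flcn KO replicate 4, at 1897, lay within the WT values of 1829 to 1910, and the other 4 Flcn KO libraries lay above them. The 15 fatty acid oxidation genes summed to 1137 ± 65.8 in Flcn KO and 1125 ± 36.7 in WT, and the groups overlapped. These sums are descriptions, weighted towards the most abundant members.

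Of 101 further genes of the same pathways, listed with earlier results of these data known, 84 were in the table and tested, and the other 17 were not analysed here. In limma 1 of 84 rose and 0 fell, against 0.944% and 0.768% of all genes. That gene was Ppargc1b, which encodes a coactivator of the PGC-1 family that drives genes of mitochondrial metabolism. Ppargc1b had 53.2, 66.6, 59.7, 46.6 and 54.6 normalized counts in the libraries labelled Flcn KO, against 24.8, 18.5, 26.7, 13.6 and 30.4 in the libraries labelled WT. All 5 Flcn KO libraries were above all WT libraries. The means were 56.1 ± 7.50 in Flcn KO and 22.8 ± 6.72 in WT libraries (SD, n = 5 each), a log2 fold change of 1.3 (SE 0.21, 95% interval 0.83 to 1.78) with an adjusted p of 0.0163 in limma and 0.000906 in edgeR. With a replicate block, the adjusted p in limma was 0.0661.

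The other regulators named did not pass. Pprc1, a related coactivator, ranged from 95.5 to 142 normalized counts in Flcn KO and from 70.0 to 91.3 in WT libraries, without overlap, with a log2 fold change of 0.44 and an adjusted p of 0.207 in limma. Acacb, whose product makes the malonyl-CoA that inhibits carnitine acyltransferase, averaged 10.2 in Flcn KO and 2.76 in WT libraries, a log2 fold change of 1.84 with an adjusted p of 0.136 in limma. WT replicate 1 alone had no Acacb read, so this fold depends on the added 1. Without that library, the log2 fold change of Acacb in limma was 1.45. DESeq2 on all libraries gave 1.90. The receptor genes Ppard and Esrra had log2 fold changes of -0.27 and -0.41, with Esrra between 1.11 and 11.4 normalized counts per library. Ppara and Ppargc1a were not analysed here.

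**Figure D5:**
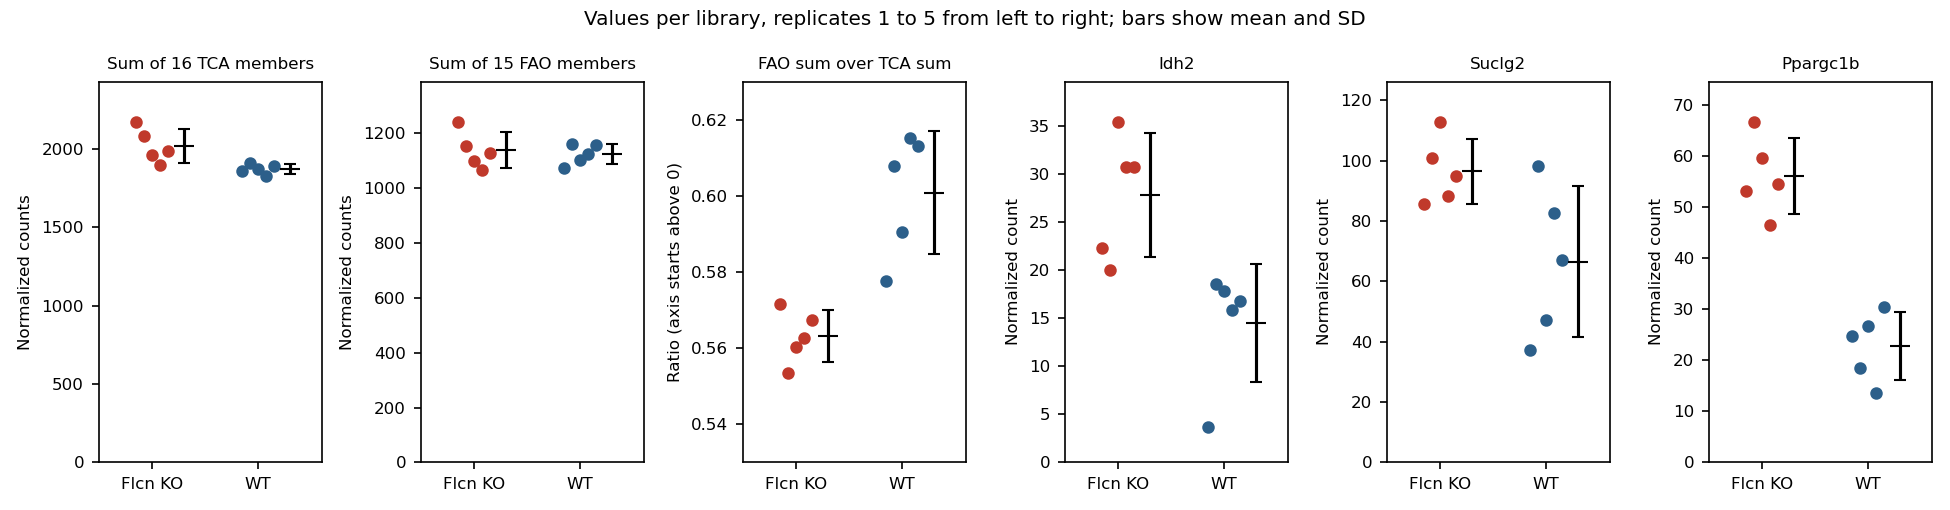
Values per library, Flcn KO left of WT, with mean and SD, for the sum of the TCA members, the sum of the fatty acid oxidation members, the ratio of these sums (on an axis that starts above 0), and the normalized counts of Idh2, Suclg2 and Ppargc1b. Flcn KO and WT points overlap for both sums and for Suclg2, and do not overlap for the ratio, Idh2 and Ppargc1b. The ratio was chosen with the values in view and has no test.

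Around the cycle, 0 of 13 further TCA and succinate dehydrogenase genes passed. Sdha, the catalytic subunit of succinate dehydrogenase, averaged 475 in Flcn KO and 457 in WT libraries, a log2 fold change of 0.05, and Sdhb had -0.10. The assembly factor gene Sdhaf1 averaged 10.7 in Flcn KO and 20.3 in WT libraries, a log2 fold change of -1.14 with an adjusted p of 0.277 in limma. Sdhaf4, with 1 to 10 reads per library, had 0.68, and the cytosolic enzyme gene Idh1 had 0.39. At the entry of pyruvate, 0 of 11 genes passed. The pyruvate carrier genes Mpc1 and Mpc2 had log2 fold changes of -0.25 and 0.15, the kinase genes Pdk1 and Pdk2 had 0.08 and 0.53, the phosphatase genes Pdp1 and Pdp2 had -0.14 and 0.51, the complex component gene Pdhx had -0.06 and the lipoate synthase gene Lias had 0.28.

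Of 24 further genes of mitochondrial beta-oxidation, 0 passed. The ones with the smallest p were Mut, which handles the end product of odd-chain fatty acids, with a log2 fold change of 0.53 and an adjusted p of 0.217 in limma, the carnitine transporter gene Slc22a5 with 0.47 and 0.248, and Pccb, a subunit of propionyl-CoA carboxylase, with 0.72 and 0.261. Acads, Echs1 and Acsl1, which act on short chains, hydrate enoyl-CoA and activate fatty acids, had 0.21, 0.43 and 0.37. Of 12 peroxisomal genes, 0 passed. Ehhadh, the peroxisomal bifunctional enzyme, averaged 10.7 in Flcn KO and 17.4 in WT libraries, a log2 fold change of -0.64 with an adjusted p of 0.175 in limma. The oxidase gene Acox3 had 0.39, with an adjusted p of 0.365 in limma. Acaa1a had 0.05, and since reads of its near-identical copy Acaa1b could be split between them, its value is uncertain. Of 12 genes of lipid droplets, lipases and fatty acid uptake, 0 passed. The lysosomal lipase gene Lipa averaged 192 in Flcn KO and 206 in WT libraries, a log2 fold change of -0.08, the hormone-sensitive lipase gene Lipe had 0.08, Fabp5 had 0.23, Plin3 had 0.39 and Slc27a1 had -0.29.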

How the data were processed

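RNA sequencing of 10 sorted Treg populations was analysed from the deposited table of 14738 genes. Per the labels' protocols, RNA came from an RNeasy micro column and cDNA from a low-input NuGEN method. The submitters' processing notes name DESeq2 1.24.0, RSEM 1.3.1, STAR 2.5.3a, Trimmomatic 0.36 and the build mm9, without roles or order. No source used here names the annotation, the read filters or how genes were chosen for the table.

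The deposited signal columns, 1 per library, are read here as normalized counts: within 0.01 reads, 100% of each column's values are whole numbers of reads once divided by a constant. The deposited table also holds the authors' mean signal and their comparison: a log2 fold change, its SE, the Wald score, the p-value and the adjusted p-value. Because the deposited values are not raw counts, the test was limma 3.58.1 (R 4.3.3) on log2(normalized count + 1), for 14723 genes with at least 1 normalized count in at least 5 libraries, with genotype as the only term and Benjamini-Hochberg adjustment over all of them (threshold 0.05). Folds are therefore on the log2(value + 1) scale, where the added 1 pulls the logs of low values together. They can still exceed those of the count models, as for Idh2, with 1.02 in limma, 0.90 in edgeR and 0.91 in DESeq2. edgeR 4.0.16 (quasi-likelihood) and DESeq2 1.42.0 were run on the recovered reads as alternatives, and edgeR's own filter left Acadvl untested. That filter kept 73 of the 84 further pathway genes, and left out Sdhaf4, Mpc1, Acads, Esrra and Acacb among others. The other alternatives were the pseudocount, the filter, moderation with trend and robust settings, TMM scaling, a replicate block and leaving out each library. Reads carry no molecular identifiers known here, so depth limits cover counting error only.

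The members and lists were chosen with earlier results of these data known. Every member is named. All library values are printed for members with an unadjusted p under 0.05, with the highest level per length, or with the highest or lowest fold change in either list. Of the other lists, genes past the threshold, up to 3 with the smallest p per list and a set panel are named, except a few that are not reported here. Symbols matched for 84 of 101 such genes. Transcript lengths and GC content came from GENCODE vM21 (GRCm38) by symbol and promoters from RefSeq (GRCm38.p6), both of another build than the deposited table, so they describe the gene and not its mapped reads.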

Additional observations from a re-analysis of the deposited data

Results flagged for a closer look

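In 13 of 138 groups of 5 libraries tested for a value far from its group, 1 library stood apart. Chance alone gives about 1 in 20 where values are normally distributed. Of the 13, 3 were among the 62 groups of members, which is near 1 in 20, and 6 involved WT replicate 1. The groups share the same libraries, so they are not independent.

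Among the members, Idh3a was 95.2 normalized counts in Flcn KO replicate 1, against 57.5 to 65.2 in the other Flcn KO libraries. Idh2 was 3.72 in WT replicate 1, against 15.9 to 18.5 in the other WT libraries. Mdh2 was 129 in WT replicate 4, against 155 to 162.

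Among the other named genes, Plin3 was 9.91 normalized counts in Flcn KO replicate 4, against 25.7 to 28.9 in its group. In Flcn KO replicate 3, Echs1 was 68.5, against 36.7 to 42.1, and Acaa1a was 58.6, against 88.2 to 99.8. In WT replicate 1, Acox3 was 64.4, against 98.7 to 112, Sdhb was 92.9, against 40.7 to 54.1, Pdhx was 27.2, against 34.0 to 36.7, and Flcn was 78.0, against 45.6 to 54.7. Mut was 61.9 in WT replicate 5, against 34.0 to 40.9, and Mpc1 was 10.2 in WT replicate 3, against 2.48 to 4.53. Mitochondrial ribosomal RNA made up 44.1% of the reads of WT replicate 1, against 24.7% to 26.6% in the other WT libraries.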

How the results depend on the processing

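Under each of the 20 alternatives, 0 of the members tested passed the threshold. All 31 were tested, except that edgeR left out Acadvl, with and without WT replicate 1, and the stricter filter left out Acadvl and Etfb. The lowest adjusted p of any member was 0.0951, for Idh2 in DESeq2. Of 616 alternative estimates, 27 had the opposite sign, in 10 members, whose log2 fold changes with all libraries were at most 0.105 in size. The other 21 members kept their sign, 14 of them positive.

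Among all genes, limma called 139 higher and 113 lower in Flcn KO. The total was 598 with trend and robust moderation, 592 in edgeR, 727 in DESeq2, 682 in edgeR without WT replicate 1 (added after seeing the data), and between 122 and 217 with 1 library left out. Among the 84 further pathway genes it was 1. It was 2 with trend and robust moderation, where Acacb joined Ppargc1b.

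Libraries with the same number in the labels deviated together by a correlation of only 0.00923 to 0.0325, so the numbers were not taken as pairs. With the replicate block 59 genes were called, 0 of them among the further pathway genes.

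Signs turned for Cpt1a (-0.11), Sdhb (0.089), Lipe (-0.031) and Etfdh (0.089) in edgeR without WT replicate 1. They also turned for Acadvl in DESeq2 (-0.12) and for Etfdh in edgeR (0.0022) and DESeq2 (0.0044). With 1 library left out, log2 fold changes ran from -0.12 to 0.038 for Dlat, -0.092 to 0.19 for Idh3a, -0.11 to 0.16 for Cpt1a, -0.23 to 0.21 for Cpt2, -0.24 to 0.028 for Acadm, -0.36 to 0.35 for Acadvl, -0.11 to 0.0044 for Hadha, -0.22 to 0.10 for Etfb, -0.088 to 0.11 for Etfdh and -0.086 to 0.24 for Pnpla2. They ran from -0.21 to 0.10 for Sdhb, -0.0037 to 0.21 for Pdk1, -0.31 to 0.14 for Pdp1, -0.41 to 0.015 for Mpc1, -0.081 to 0.48 for Acads, -0.012 to 0.18 for Acaa1a, -0.18 to 0.014 for Lipa and -0.042 to 0.21 for Lipe. The difference in mitochondrial ribosomal RNA ran from -1.5 to 3.37 percentage points. The cause of these turns was not tested.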

Other observations

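The ratio of the fatty acid oxidation sum to the TCA sum was looked at after the values were seen. It was 0.572, 0.554, 0.560, 0.563 and 0.567 in the Flcn KO libraries and 0.578, 0.608, 0.591, 0.615 and 0.613 in the WT libraries. The groups did not overlap, with WT replicate 1 nearest to the Flcn KO values. No test is given, since the ratio was chosen with the values in view, and the fold changes of single members behind it did not pass the test.

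The Treg marker list was not level between groups: its 6 genes summed to between 10092 and 11177 normalized counts in Flcn KO and between 10983 and 12457 in WT libraries, with Il2ra higher and Ikzf2 lower in Flcn KO in limma. Mitochondrial ribosomal RNA was 29.0% ± 2.78 in Flcn KO and 29.3% ± 8.30 in WT libraries (SD, n = 5 each; exact two-sided permutation p = 0.984). Without WT replicate 1, the Flcn KO mean was 3.37 percentage points above the WT mean.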
